A study of Homo sapiens with 24 samples.

Results

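RNA sequencing of SH-SY5Y, an established human neuroblastoma cell line, was used here to read the effect of dextran-catechin (DC) at 24 h with interferon gamma (IFN) either present or absent. DC is a conjugate of the plant flavonoid catechin with the sugar polymer dextran, and the study lists it as a copper chelator. The comparison used 12 of the 24 libraries of the series. On the side with DC were 3 libraries of cells given DC and 3 of cells given DC together with IFN. On the side without DC were 3 libraries of untreated control cells and 3 of cells given IFN alone. All 12 came from cells harvested at 24 h, and the dose of each agent is not given in the labels used here. The DC term is the log2 fold change of DC over no DC in a model that also holds an IFN term, so that each DC group is set against the group with the same IFN status. Whether libraries of 1 group came from separate cultures is not stated, so the p-values measure the spread between these libraries, which may be technical.

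NRF2 (gene NFE2L2) is a transcription factor that KEAP1 marks for destruction in unstressed cells. Electrophiles and oxidants, among them quinones formed when catechols oxidise, modify KEAP1, and NRF2 then binds antioxidant response elements next to genes for quinone reduction, glutathione, thioredoxin, NADPH supply and iron storage. Iron storage and uptake have a second layer of control, because iron regulatory proteins bind the transcripts of ferritin and of the transferrin receptor and act on them in opposite directions.

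Library totals ran from 24569980 to 34922165 counts, and the 30 adrenergic neuroblast genes that mark this line summed to 4801 to 5070 CPM (read counts brought to a fixed, scaled library total) in the DC libraries, 4914 to 4986 with DC and IFN, 4961 to 5169 in the control and 4894 to 5221 with IFN. Markers of leukocytes summed to at most 0.703 CPM and those of epithelium to at most 0.892 CPM in every library, while the 5 mesenchymal markers, which include VIM, summed to 1092 to 1241 CPM across the 12. The 5 Schwann cell markers summed to 60.0 to 78.3 CPM, most of it PMP22, and the 7 of fibroblasts and endothelium to 154 to 295 CPM, most of it LUM and DCN, with the endothelial PECAM1, VWF and CDH5 at or near 0. A trend with GC content set libraries of the same group apart. The median log2 level of GC-rich against GC-poor genes, relative to the mean of the 12 libraries, was -0.26 ± 0.62 with DC, 0.18 ± 0.33 with DC and IFN, -0.53 ± 0.31 in the control and 0.65 ± 0.53 with IFN (SD, n = 3 each). Removing this trend with an offset for each library is the alternative that is named wherever it changes a call.

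DC raised a small set of genes, most of them NRF2 targets. Of 14295 genes tested with edgeR's quasi-likelihood test, 9 were called at an adjusted p under 0.05, which is 0.063% of the genes, and all 9 were higher with DC. Of the 9, 8 belong to a list of 58 NRF2 target genes that was chosen with earlier results of these data known. The other, TFRC, encodes the transferrin receptor. NQO1 alone passed a 2-fold change. No gene was called lower, and 423 genes in either direction had an unadjusted p under 0.05 (312 to 939 with 1 library left out, the highest without DC library 2, and 1011 with the GC trend removed). The 423 are a smaller share of the 14295 genes than the 0.05 that chance alone would give. The median DC term over all tested genes was -0.01 on the log2 scale. Among the 10 genes with the smallest p, 9 were members of the NRF2 list, and among the 40 smallest 12 were.

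**Figure D1:**
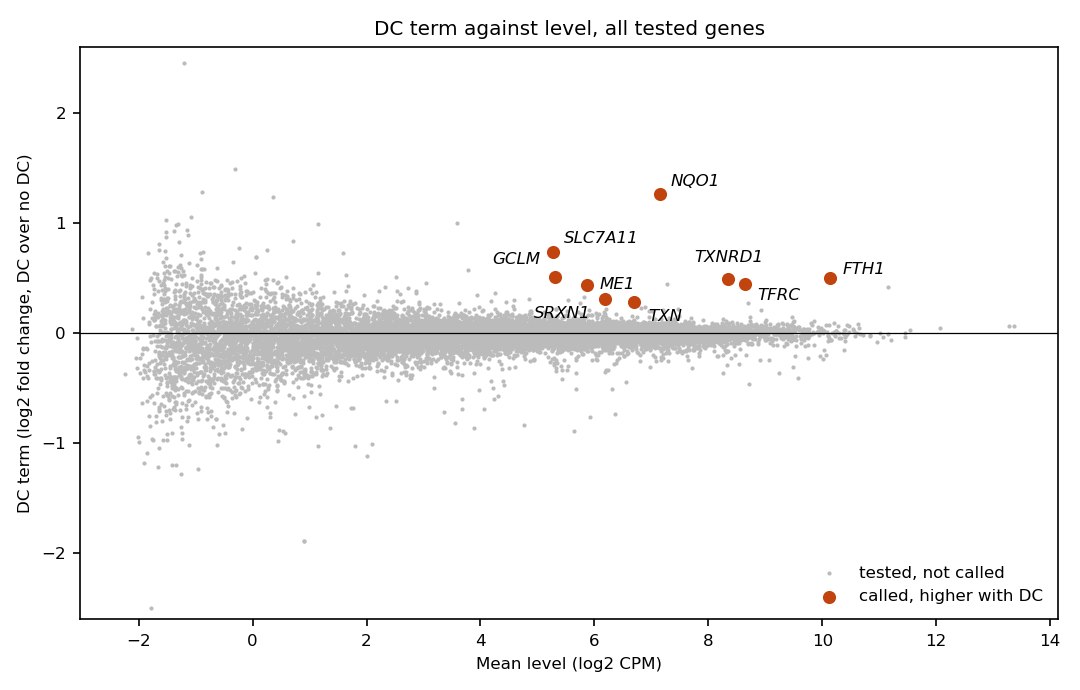
Each point is 1 of the 14295 tested genes, with its mean level in log2 CPM on the horizontal axis and its DC term (log2 fold change of DC over no DC) on the vertical axis, values beyond 2.5 being drawn at 2.5. The 9 called genes (orange) all lie above 0, from 0.28 for TXN to 1.26 for NQO1, at mean levels where most other genes lie close to 0.

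NQO1, which reduces quinones in a reaction that avoids semiquinone radicals, showed the largest called change. It lies on chromosome 16 from 69706996 to 69726951 on the minus strand (GRCh38). Its level was 226, 197 and 211 CPM with DC, against 86.1, 88.0 and 97.8 CPM in the control. In the cells given IFN it was 197, 189 and 182 CPM with DC and IFN, against 71.3, 73.1 and 86.1 CPM with IFN alone. Every library with DC stood far above every library without it. The DC term was 1.26 (SE 0.058, adjusted p = 1.92e-07), a 2.40-fold rise with a 95% interval of 2.20 to 2.61.

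FTH1, the ferritin heavy chain that stores iron in its oxidised form, was the most abundant of the called genes. It is encoded on chromosome 11 from 61959718 to 61967660, minus strand. Levels were 1429, 1282 and 1373 CPM with DC, against 966, 956 and 1019 CPM in the control, and 1247, 1279 and 1258 CPM with DC and IFN, against 861, 873 and 903 CPM with IFN. The 6 libraries with DC did not overlap the 6 without, and the 3 libraries with DC and IFN lay closest together. The DC term was 0.50 (SE 0.039, adjusted p = 7.83e-05), a 1.41-fold rise. FTH1 has many processed pseudogenes, and how the authors' counting divided reads among such copies is not given in the sources used here, so its level is less certain than its difference between libraries counted alike. Its partner FTL, the light chain, had a DC term of 0.45 (SE 0.17, adjusted p = 1) with wide scatter, at 165, 222 and 114 CPM with DC against 87.7, 122 and 100 CPM in the control. With the GC trend removed FTL was called (log2 fold change 0.48, adjusted p = 0.0444).

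TFRC, which imports transferrin-bound iron (chromosome 3, 196027183 to 196082189), rose as well. It stood at 522, 472 and 583 CPM with DC, against 428, 392 and 438 CPM in the control, and at 387, 406 and 366 CPM with DC and IFN, against 241, 250 and 286 CPM with IFN. The groups did not overlap at either IFN status, although the DC and IFN libraries lay below most control libraries, as the libraries with IFN alone lay below the control. The DC term was 0.45 (SE 0.07, adjusted p = 0.0378). The iron regulatory protein genes ACO1 and IREB2 had DC terms of 0.16 (SE 0.07) and 0.00 (SE 0.06) and neither was called (adjusted p = 1 for each). SLC11A2, the DMT1 iron transporter, had 0.08 (SE 0.05, adjusted p = 1). Of 19 tested genes of iron handling, FTH1 and TFRC were called, both higher, against 0.063% of all tested genes. A positive DC term was found in 15 of the 19, against 45.5% of all tested genes, with a list median of 0.08.

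The thioredoxin system, which keeps protein thiols reduced, had 3 called genes among 7 tested, against 0.063% of all tested genes. TXNRD1, the cytosolic thioredoxin reductase (chromosome 12, 104215779 to 104350305, plus strand), was at 399, 361 and 412 CPM with DC and 279, 284 and 280 CPM in the control. With IFN present it was at 375, 376 and 356 CPM with DC and IFN and 254, 242 and 281 CPM with IFN. Each library with DC stood above all 6 without it. The DC term was 0.49 (SE 0.046, adjusted p = 0.000399). SRXN1, sulfiredoxin, which restores over-oxidised peroxiredoxins, averaged 82.4 ± 3.9 CPM with DC and 66.4 ± 2.3 CPM in the control, and 78.6 ± 4.0 CPM with DC and IFN and 63.5 ± 3.5 CPM with IFN (SD, n = 3 each), for a DC term of 0.31 (SE 0.045, adjusted p = 0.0261). TXN, thioredoxin itself, showed the smallest called change at 0.28 (SE 0.043, adjusted p = 0.0378), from means of 116 ± 1.6 CPM with DC and 96.6 ± 0.71 CPM in the control, and 110 ± 1.1 CPM with DC and IFN and 90.01 ± 8.6 CPM with IFN. The other members were not called, with DC terms of 0.21 for PRDX1, the abundant cytosolic peroxiredoxin, and -0.07 for mitochondrial TXN2.

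Cystine import and glutathione synthesis gave 2 called genes of 13 tested, against 0.063% of all tested genes. SLC7A11, the cystine and glutamate exchanger (chromosome 4, 138164097 to 138242349), had 62.1, 47.7 and 58.3 CPM with DC, against 28.3, 28.9 and 34.1 CPM in the control. It had 42.8, 46.2 and 35.1 CPM with DC and IFN, against 27.1, 31.1 and 23.7 CPM with IFN. Its DC term of 0.74 (SE 0.10, adjusted p = 0.0213) was second to that of NQO1, and its libraries scattered more than those of the other called genes. SLC7A11 is also an ATF4 target, and of 29 tested ATF4 target genes it was the only member called. ASNS, asparagine synthetase, a standard ATF4 target, had a DC term of 0.16 (SE 0.05, adjusted p = 1). The median of that list was 0.02, with 25 of 29 positive at a median of 0.15 without IFN and 10 of 29 positive at a median of -0.14 with IFN. With the GC trend removed these medians were 0.12 and 0.02. GCLM, the modifier subunit of the enzyme that makes gamma-glutamylcysteine (chromosome 1, 93885205 to 93909456), had 40.2, 35.7 and 42.5 CPM with DC, against 30.4, 30.3 and 29.8 CPM in the control, and 57.3, 54.0 and 50.9 CPM with DC and IFN, against 32.6, 32.0 and 39.9 CPM with IFN. Its DC term was 0.51 (SE 0.074, adjusted p = 0.0261). The catalytic subunit GCLC had 0.19 (SE 0.058, adjusted p = 1) and was called with the GC trend removed (adjusted p = 0.0444). Glutathione reductase, GSR, had 0.17 (SE 0.041, adjusted p = 0.531), its DC libraries lying above their counterparts at both IFN statuses, and glutathione synthetase, GSS, had -0.02.

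Of 6 tested genes that supply NADPH, 1 was called, against 0.063% of all tested genes. This was ME1, cytosolic malic enzyme (chromosome 6, 83210389 to 83431071). It had 72.8, 66.2 and 80.02 CPM with DC, against 55.7, 55.7 and 56.9 CPM in the control, and 60.3, 66.3 and 59.2 CPM with DC and IFN, against 43.6, 37.9 and 49.6 CPM with IFN. The DC term was 0.44 (SE 0.068, adjusted p = 0.0378).

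**Figure D2:**
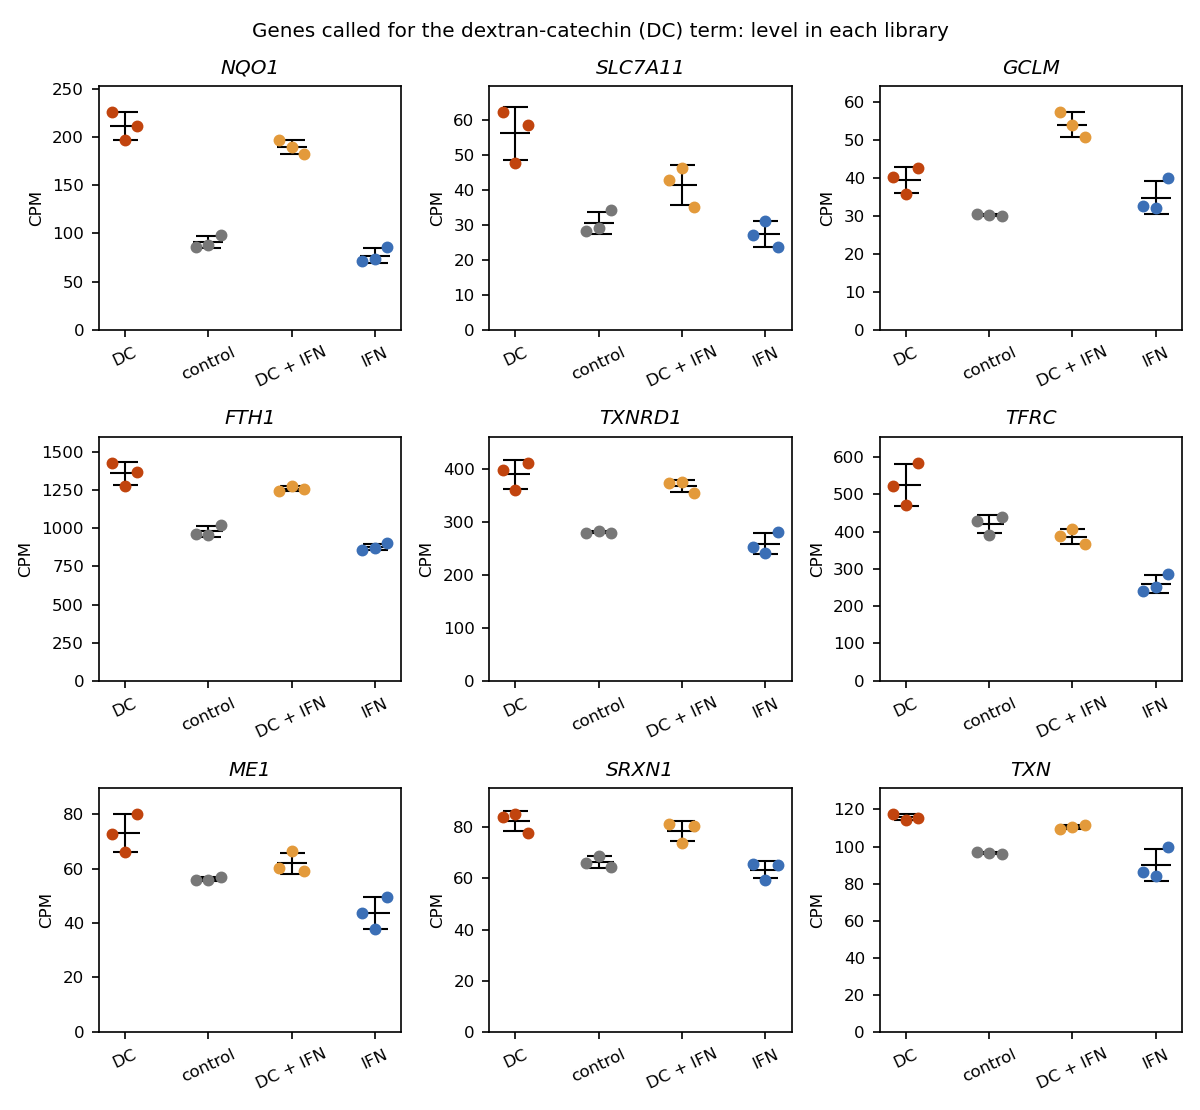
Each panel shows 1 of the 9 called genes, with CPM from 0 on the vertical axis and the groups DC, control, DC with IFN and IFN on the horizontal axis; points are libraries, and the bar and whiskers are the mean ± SD of 3 libraries. In every panel the 3 DC points lie above the 3 control points and the 3 points for DC with IFN lie above the 3 for IFN.

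A library-by-library count was made without the model. In all 9 called genes, each DC library exceeded each control library and each library with DC and IFN exceeded each library with IFN. Over all tested genes this held for 41, or 0.287%, and the opposite order held for 47, or 0.329%. In the NRF2 list 12 of 53 tested members showed it, namely the 8 called members and FECH, GSR, TRIM16 and TRIM16L. The calls and this count read the same libraries and are not independent of each other.

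NQO1, FTH1 and TXNRD1 were called with each of the 12 libraries left out in turn (adjusted p up to 3.03e-06, 0.00077 and 0.00321). The other 6 each lost their call when some libraries were left out, although their fold changes moved little. All 6 also lost it in a fit of all 24 libraries (adjusted p from 0.0576 for SRXN1 to 0.965 for ME1), and TXN with no filter on low counts (0.0625) and in the model with an interaction (0.0663). SLC7A11 was called without control library 1, DC library 2, DC and IFN library 3, or IFN library 2 or 3, and lost without any of the other 7 libraries (adjusted p up to 0.0836). GCLM was called without control library 1, DC library 2 or IFN library 3 and lost without any of the other 9 (up to 0.109). SRXN1 was called without DC library 2 or 3, DC and IFN library 2 or IFN library 3 and lost without any of the other 8 (up to 0.12). TFRC was called without control library 1 or DC library 2, and ME1 and TXN without DC library 2 or IFN library 3, and each was lost without any of the other 10 (up to 0.15, 0.149 and 0.161). In all, 3 genes were called without control library 2 or 3, DC library 1, DC and IFN library 1 or IFN library 1, 4 without DC library 3, DC and IFN library 2 or 3 or IFN library 2, and 6 without control library 1. Without DC library 2 the count was 11, with FECH higher and SEPW1 lower added. Without IFN library 3 it was also 11, with the interferon-induced IFITM1, IFITM3 and IFI27 added, all lower, and TFRC lost. The lowest log2 fold changes of the 6 were 0.69 for SLC7A11, 0.47 for GCLM, 0.41 for TFRC, 0.39 for ME1, 0.29 for SRXN1 and 0.26 for TXN.

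The wider NRF2 list leaned upward. It was chosen with earlier results of these data known and holds 8 of the 9 called genes, so its shares are a description and not independent support. Of 58 listed genes 53 were tested, and AKR1B10, OSGIN1, GPX2, GSTM1 and ABCG2 had too few counts (at most 16 in any of the 12 libraries). Of the 53, 8 were called higher and 45 were not called, against a call rate of 0.063% over all genes. A positive DC term was found in 46 of 53, against 45.5% of all tested genes, and the list median was 0.17, against -0.01 over all tested genes. With an unadjusted p under 0.05 there were 19 members higher and 0 lower, against 423 of all 14295 tested genes in either direction. Read at each IFN status, 47 of 53 were positive without IFN (median 0.26), against 47.1% of all tested genes, and 35 of 53 with IFN (median 0.16), against 48.7%. By role, the medians were 0.16 for 10 genes of quinone and carbonyl reduction, 0.15 for 13 of cystine and glutathione, 0.21 for 7 of the thioredoxin system, 0.16 for 6 of NADPH supply, 0.30 for 9 of heme and iron, and 0.18 for 8 transporters and adaptors. The 6 NADPH genes had medians of 0.31 without IFN, where all 6 were positive, and -0.02 with IFN, where 2 were. With the GC trend removed these medians were 0.27 and 0.13, and 5 of the 6 were positive with IFN. For all 53 members that removal gave medians of 0.22 without IFN and 0.17 with IFN. With IFN 44 of the 53 were then positive, against 54.0% of all tested genes. All 9 tested genes of heme and iron were positive in the DC term. Of 12 genes that hold or steer NRF2 itself, 8 had a positive DC term, none was called or had an unadjusted p under 0.05, and the median was 0.03, with NFE2L2 at -0.02 (SE 0.05), KEAP1 at 0.02 (SE 0.17), BACH1, a repressor at the same elements, at 0.11 (SE 0.05) and MAFG, an NRF2 partner, at 0.05 (SE 0.09).

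Several classical targets were not called, with the limits their counts allow. HMOX1, heme oxygenase 1, often the most responsive NRF2 and BACH1 target, was scarce at 1.37, 1.696 and 0.70 CPM with DC, against 0.977, 1.004 and 0.663 CPM in the control, and at 1.2, 0.876 and 2.04 CPM with DC and IFN, against 1.248, 0.963 and 1.36 CPM with IFN. The groups overlapped, and the DC term of 0.36 had a 95% interval of -0.19 to 0.91 (adjusted p = 1). AKR1C1, an aldo-keto reductase, had 0.37 (SE 0.15, adjusted p = 1) at 2.84 ± 0.13 CPM with DC and 2.03 ± 0.27 CPM in the control, and its close copies AKR1C2 and AKR1C3 had -0.21 and 0.21, all 3 uncertain because counting may divide reads among them. NQO2, the quinone reductase related to NQO1, had 0.22 (SE 0.10, adjusted p = 1). SQSTM1, the p62 adaptor that binds KEAP1, had 0.33 (SE 0.13, adjusted p = 1), and TRIM16 had 0.36 (SE 0.090, adjusted p = 0.636). Both were called with the GC trend removed (adjusted p = 0.000104 and 0.00335).

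FECH, ferrochelatase, which inserts iron into heme, came next after the called genes. It had 63.3, 52.6 and 59.4 CPM with DC, against 50.5, 48.5 and 48.9 CPM in the control, and 43.3, 46.5 and 43.0 CPM with DC and IFN, against 34.8, 34.6 and 33.9 CPM with IFN. The groups did not overlap, and the DC term of 0.30 (SE 0.052) missed the threshold at adjusted p = 0.0848. It was called with the GC trend removed (adjusted p = 0.00431). That alternative called 20 genes, or 0.14%, of which 19 (0.133%) were higher, 1 was lower (0.007%) and 13 were NRF2 list members, and it kept all 9 calls.

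**Figure D3:**
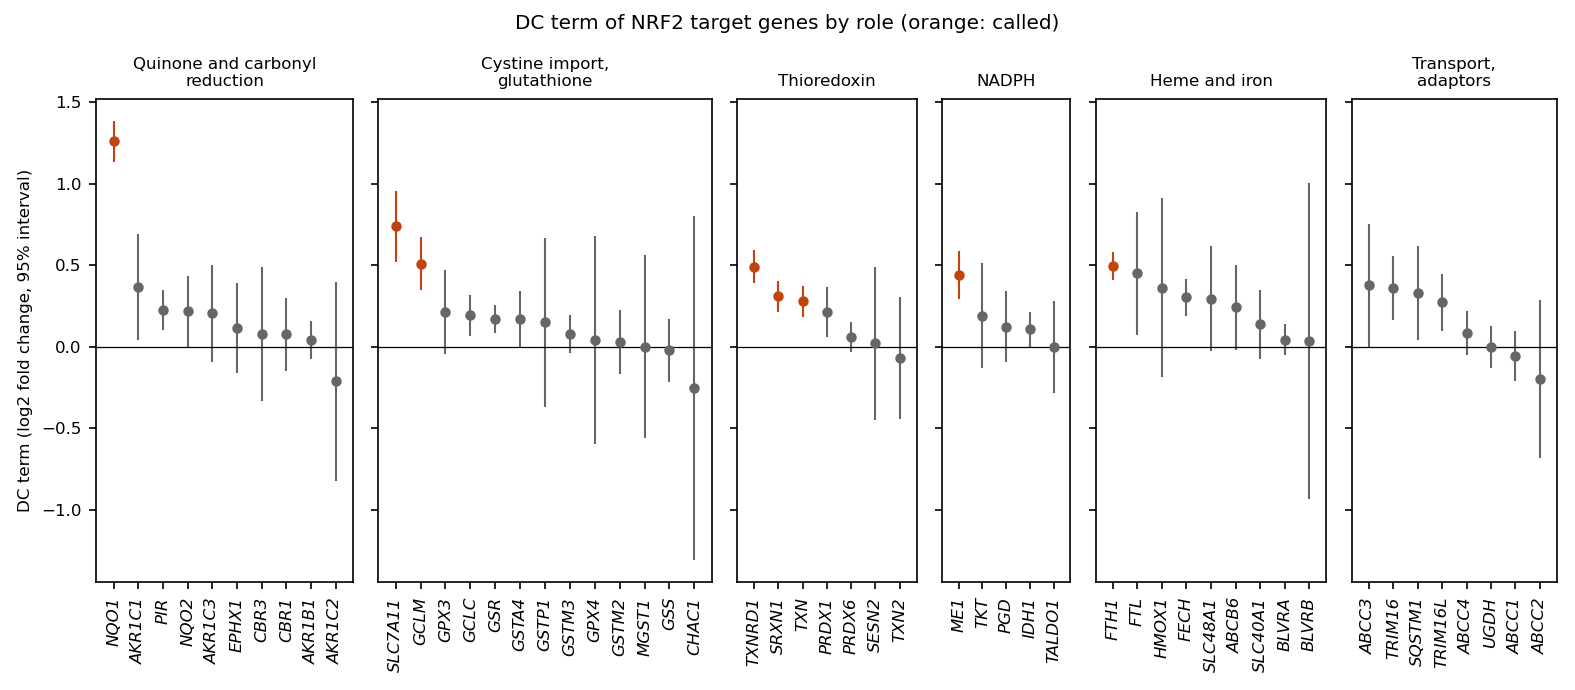
The DC term in log2 units (vertical axis) of the tested NRF2 target genes reported here is shown in panels by role, each point with its 95% interval from the fit and orange where the gene was called. Called genes appear in 5 of the 6 roles, most points lie above 0, and the widest intervals belong to scarce genes such as CHAC1 and BLVRB.

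An antioxidant response element core, TGACNNNGC, was searched on both strands in RefSeq promoter windows (GRCh38.p14) that run from 250 bases before to 50 after each gene's start. It was found in 13.6% of 27305 promoters and in 14.9% of the 10584 tested genes with an entry. Of the called genes, 7 had an entry and 3 held a match, and of the 40 tested NRF2 list members with an entry 11 did, or 27.5%. The stretches around the matches before the start are shown because they let the letters be compared between called genes, with the 9 matching bases in capitals and each sequence read 5′ to 3′ along its gene. The match began 34 bases before the start in GCLM, where it lies on the opposite strand (chr1:93909431-93909504, minus strand), 99 before it in TXNRD1 (chr12:104215640-104215728, plus strand) and 137 before it in ME1 (chr6:83431140-83431228, minus strand).
GCLM: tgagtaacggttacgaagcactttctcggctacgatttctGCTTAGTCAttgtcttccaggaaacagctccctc
TXNRD1: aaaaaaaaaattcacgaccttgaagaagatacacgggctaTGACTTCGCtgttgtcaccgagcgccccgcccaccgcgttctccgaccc
ME1: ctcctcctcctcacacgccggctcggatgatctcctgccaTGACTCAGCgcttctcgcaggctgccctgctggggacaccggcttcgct
TXNRD1 held a further match 8 bases before its start, on the opposite strand, and ME1 a further match after its start. NQO1, TFRC, SRXN1 and TXN held no match in this window, which says only that these letters are not in it, since elements can lie farther away. A match is a description of the letters and not a bound site.

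The DC effect was read separately at each IFN status from a fit of the 12 libraries with a mean for each group. These comparisons share no library. Without IFN, DC over control called 2 genes, or 0.014%, both higher: NQO1 at 1.22 (SE 0.08, adjusted p = 5.69e-05) and FTH1 at 0.47 (SE 0.06, adjusted p = 0.0171). An unadjusted p under 0.05 was found for 198 genes, a number that ran from 131 without control library 3 to 840 without DC library 3. The 198 are a smaller share of the 14295 genes than the 0.05 that chance alone would give. In these 6 libraries the same replicate numbers deviated together, with correlations of 0.165, 0.595 and 0.246, and fitting them alone with the replicate number as a block called 6 genes, all higher, namely NQO1, FTH1, TXNRD1, SLC7A11, SERF1A and PTCD1. Fitted alone without the block they called NQO1 only. NQO1 was called without each of the 12 libraries in turn. FTH1 was called without DC library 2, DC and IFN library 3, or IFN library 2 or 3 and lost without any of the other 8, so that 1 to 4 genes were called in all. With the GC trend removed 8 were called.

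With IFN present, DC and IFN over IFN called 4 genes, or 0.028%. NQO1 at 1.30 (SE 0.08, adjusted p = 2.85e-05), FTH1 at 0.52 (SE 0.06, adjusted p = 0.00615) and TXNRD1 at 0.51 (SE 0.07, adjusted p = 0.0214) were higher, or 0.021% of the genes. FN1, fibronectin, an extracellular matrix protein, was the only gene lower (0.007%), at -0.58 (SE 0.07, adjusted p = 0.0206). Its levels were 765, 679 and 802 CPM with DC and IFN, against 1104, 1190 and 1071 CPM with IFN, and 266, 266 and 250 CPM with DC, against 274, 277 and 308 CPM in the control. The groups did not overlap at either IFN status. The log2 fold change without IFN was -0.14 (SE 0.07), and the test of the difference between the IFN statuses gave -0.45 (SE 0.11) with an unadjusted p of 0.0011 and no call. FN1 lost its call without DC library 1, DC and IFN library 1 or 2, or IFN library 1 or 2, and TXNRD1 without any of these or control library 2 or 3. FTH1 lost it without DC and IFN library 1 or 2 or IFN library 1, and NQO1 kept it without each of the 12. Fitted alone, the 6 libraries with IFN called NQO1 only. Their replicate numbers did not deviate together (correlations of -0.02, -0.21 and -0.32), and with the replicate number as a block 0 genes were called, NQO1 included (adjusted p = 0.0924). The count was 1 to 6 without any 1 of 11 libraries and 22 without IFN library 3. Of those 22 genes 12 were lower, among them the interferon-induced IFITM1, IFITM2, IFITM3, IFI27, BST2 and NLRC5, and the metallothionein MT2A. With the GC trend removed 8 were called.

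No gene was called for a difference in the DC effect between the IFN statuses in edgeR. An unadjusted p under 0.05 was found for 421 of the 14295 genes, again a share below 0.05. The count of 421 ran from 168 without IFN library 2 to 2384 without DC library 3 and 2693 without IFN library 3. For NQO1 the difference (with IFN minus without) was 0.08 (SE 0.12), for FTH1 0.05 (SE 0.08), for TXNRD1 0.04 (SE 0.10) and for SRXN1 0.00 (SE 0.09). The widest among the called genes were -0.28 (SE 0.19) for SLC7A11, 0.25 (SE 0.14) for GCLM and 0.25 (SE 0.12) for TFRC. Across the 14295 genes the effects at the 2 IFN statuses ran against each other, with Pearson's r = -0.32 as counted and -0.15 with the GC trend removed. Across the 53 NRF2 list members r was 0.23 as counted and 0.66 with it removed. Spearman's rank correlation was 0.07 and 0.52 for these members, and -0.33 and -0.05 for all tested genes, in the same order. These are descriptions over genes, which share libraries and base composition.

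**Figure D4:**
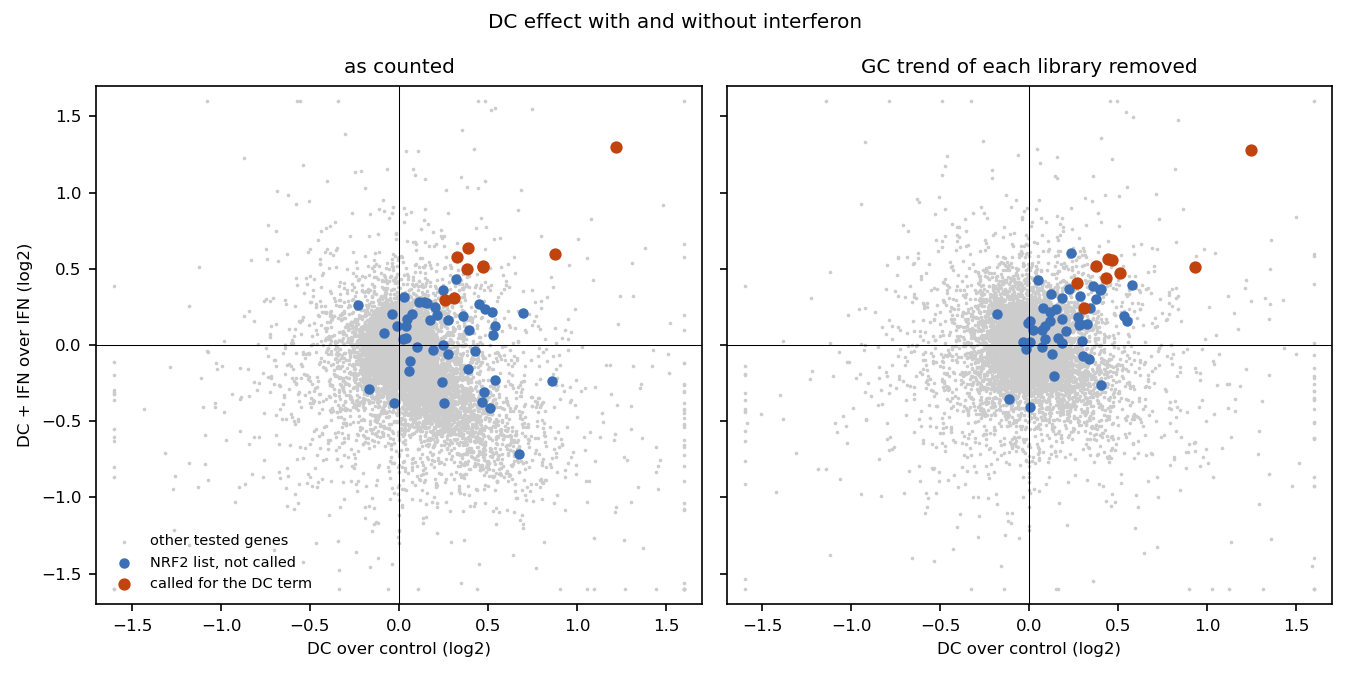
Each point is a tested gene, with its log2 fold change of DC over control on the horizontal axis and of DC with IFN over IFN on the vertical axis, as counted (left) and with each library's GC trend removed (right); values beyond 1.6 are drawn at 1.6. The 9 called genes (orange) are above 0 on both axes in both panels, while the cloud of all genes slopes downward as counted (r = -0.32) and less so after the correction (r = -0.15).

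Interferon response genes were lower in part of the libraries with DC and IFN, with wide scatter. Of 35 tested genes of this list 0 were called. An unadjusted p under 0.05 was found for 8, all lower, against 423 of all 14295 tested genes in either direction. All 35 had a negative DC term, with a median of -0.23. Without IFN, where most of them are barely expressed, 24 of the 35 were positive, and with IFN 1 of 35 was, at a median of -0.27. The median level of the list, as log2(CPM + 1) relative to the mean of the 6 libraries with IFN, was 0.07, -0.11 and -0.33 with DC and IFN, against 0.41, 0.30 and -0.29 with IFN. IFN library 3 lay with the lower libraries of the group given DC. In none of the 35 genes did the 3 libraries with DC and IFN all lie below the 3 with IFN, an order that 539 of all tested genes, or 3.77%, showed. The GC measure of these libraries was -0.02, 0.00 and 0.56 with DC and IFN and 0.79, 1.09 and 0.06 with IFN. The low IFN library thus had the lowest GC measure of its group. In the group with DC and IFN the order was the reverse, the lowest library of the list having the highest GC measure. With the GC trend removed the median DC term of the list was -0.19, and with IFN present it was -0.22 with 3 of 35 positive. IRF1, a transcription factor induced by IFN, had 312, 278 and 233 CPM with DC and IFN, against 422, 399 and 214 CPM with IFN.

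**Figure D5:**
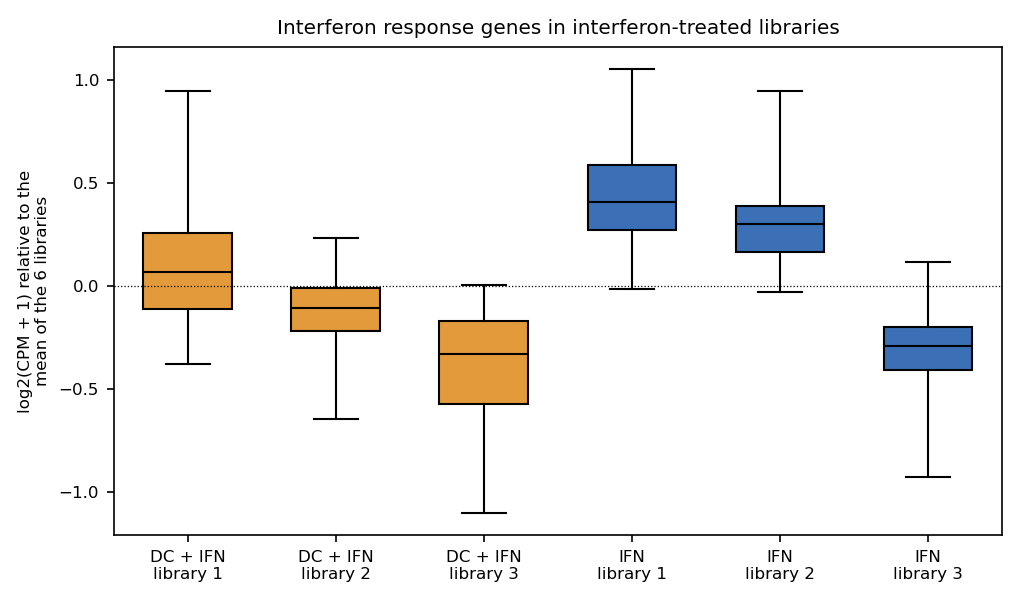
Boxes show the 35 tested interferon response genes in each of the 6 libraries with IFN, as log2(CPM + 1) relative to the mean of the 6 (vertical axis), with the median as a line, quartiles as the box and the full range as whiskers. Libraries 1 and 2 with IFN have the highest medians (0.41 and 0.30), whereas library 3 with IFN (-0.29) lies among the 3 with DC and IFN (0.07, -0.11 and -0.33).

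CD274, which encodes the checkpoint ligand PD-L1, did not pass the test. It had 1.34, 1.47 and 2.03 CPM with DC, against 1.45, 1.67 and 2.19 CPM in the control, and 74.0, 59.1 and 34.8 CPM with DC and IFN, against 79.9, 63.7 and 42.8 CPM with IFN. The groups overlapped at both IFN statuses. The DC term was -0.15 with a 95% interval of -0.60 to 0.30 (adjusted p = 1), which leaves a fall to 0.66-fold or a rise to 1.23-fold within the error.

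Copper and zinc handling showed no call for the DC term. Of 21 tested genes of copper uptake, export and chaperones, 11 had a positive DC term and the list median was 0.01. SLC31A1, the CTR1 copper importer, was at 111, 107 and 117 CPM with DC, against 121, 116 and 116 CPM in the control, and at 134, 128 and 127 CPM with DC and IFN, against 126, 120 and 127 CPM with IFN. Its DC term was -0.01 with a narrow 95% interval of -0.10 to 0.08. SOD1, the copper and zinc superoxide dismutase, had 0.14 (SE 0.05, adjusted p = 1). The metallothionein MT2A, a metal-binding protein induced through MTF1, was scarce without IFN at 0.289, 0.345 and 0.233 CPM with DC and 0.202, 0.401 and 0.346 CPM in the control. It was at 4.47, 3.86 and 4.81 CPM with DC and IFN, against 9.50, 10.03 and 4.77 CPM with IFN, where IFN library 3 again lay with the DC libraries. Its DC term was -0.68 (SE 0.23, adjusted p = 1), and reads may be divided among metallothionein copies. In the comparison with IFN present, MT2A was called lower only when IFN library 3 was left out. SLC30A1, the zinc exporter induced by the same factor, had -0.12 (SE 0.07, adjusted p = 1).

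Other stress and growth lists held no call beyond genes already named. In the aryl hydrocarbon receptor list of 10 genes, 1 of 5 tested was called, against 0.063% of all tested genes. It was NQO1, which that receptor also induces. AHR, the receptor's own gene, was not tested, with at most 1 count in any of the 12 libraries. Of 20 endoplasmic reticulum chaperone and unfolded protein response genes 17 were positive at a median of 0.07, with HSPA5 at 0.15 (SE 0.07, adjusted p = 1). Of 26 proteasome subunits, some of them reported NRF2 targets, 24 were positive, but the median was 0.03 and the largest DC term 0.09, and 14 of the 26 were positive at each IFN status. Among 31 lysosome and autophagy genes 24 were positive at a median of 0.07, with GABARAPL1, which builds autophagosomes, at 0.42 (SE 0.09, adjusted p = 0.41). DNAJB4, a heat shock co-chaperone, had 0.30 (SE 0.07, adjusted p = 0.37), and the 20 heat shock genes had a median of 0.03. The 25 tested p53 target genes had a median of 0.06 with 0 called, 26 hypoxia and glycolysis genes -0.02 with 0 called and 25 cholesterol synthesis genes 0.02 with 0 called.

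All 30 tested mitosis genes had a negative DC term, each of them small, with a median of -0.06 and none called. MKI67, the proliferation marker Ki-67, had the most negative at -0.22 (SE 0.050, adjusted p = 0.372), from 905, 860 and 793 CPM with DC, against 955, 911 and 1035 CPM in the control, and 756, 688 and 752 CPM with DC and IFN, against 841, 891 and 910 CPM with IFN. Its groups did not overlap at either IFN status. Read at each IFN status, 5 of the 30 were positive without IFN and 14 with IFN. Of 36 DNA replication genes 6 were positive and the median was -0.04. In bulk RNA, fewer cells of a kind and less RNA per cell cannot be told apart.

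The genes with the smallest p on the lower side, none of them called, included C11orf31 at -0.32 (SE 0.062, adjusted p = 0.234), TBX3, a T-box transcription factor, at -0.21 (SE 0.043, adjusted p = 0.318), RELN, reelin, a matrix protein that guides neurons, at -0.23 (SE 0.049, adjusted p = 0.372), TENM4, a teneurin adhesion protein, at -0.35 (SE 0.086, adjusted p = 0.565) and EGFR, the epidermal growth factor receptor, at -0.19 (SE 0.048, adjusted p = 0.648). TBX3 had 63.9, 62.6 and 69.2 CPM with DC, against 72.7, 79.0 and 73.6 CPM in the control, and 109, 107 and 99.8 CPM with DC and IFN, against 124, 126 and 117 CPM with IFN. DESeq2 called 26 genes, of which 7 were lower, among them C11orf31, TBX3, RELN, MKI67, FN1 and SEPW1. On the upper side PIK3R1, a regulatory subunit of PI3 kinase, had 0.23 (SE 0.050, adjusted p = 0.372) and was called with the GC trend removed (adjusted p = 0.015).

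The DC libraries were also set against those of TEPA, the other copper chelator of the study, again with and without IFN and 6 libraries a side. The doses of either agent are not given in the labels used here, so the comparison is between treatments and not between matched doses. It reads the same DC libraries as the DC term. Of 14332 genes tested, 1353 were called, or 9.44%, of which 754 (5.26%) were higher and 599 (4.18%) lower with DC than with TEPA. In the NRF2 list, 14 of 53 were called higher and 2 lower. Leaving out a library moved the number of calls between 783 and 1514, the lowest counts being 783, 804 and 853 without DC and IFN library 2, DC and IFN library 1 and DC library 1, and 794 and 896 without TEPA and IFN libraries 1 and 2. With the GC trend removed 3523 were called.

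NQO1 averaged 213 ± 14 CPM with DC and 68.5 ± 0.21 CPM with TEPA, and 191 ± 7.5 CPM with DC and IFN and 57.8 ± 8.6 CPM with TEPA and IFN (SD, n = 3 each, scaled over these 12 libraries), which gave 1.68 for DC over TEPA on the log2 scale (SE 0.066, adjusted p = 5.74e-08). SLC7A11 was also higher with DC, at 56.6 ± 7.5 CPM with DC and 13.5 ± 0.95 CPM with TEPA, and 41.7 ± 5.7 CPM with DC and IFN and 30.3 ± 4.0 CPM with TEPA and IFN (log2 1.255, SE 0.25, adjusted p = 0.00971). The gap was wider without IFN, and whether it differed was not tested. GCLM (0.86), ME1 (0.74), TXNRD1 (0.56), FTH1 (0.55), SRXN1 (0.38) and TXN (0.21) were called higher with DC as well. TFRC went the other way, at 530 ± 57 CPM with DC and 690 ± 115 CPM with TEPA, and 390 ± 20 CPM with DC and IFN and 457 ± 1.2 CPM with TEPA and IFN, which gave -0.31 on the log2 scale (SE 0.080, adjusted p = 0.0314). This call held without DC library 3, DC and IFN library 2 or TEPA library 2 and was lost without any of the other 9 libraries (adjusted p from 0.0507 to 0.0793). Scaled apart, TFRC averaged 419 CPM in the control and 259 CPM with IFN, below its levels with TEPA. NQO1 averaged 90.6 and 76.8 CPM there, above its levels with TEPA. SLC7A11 averaged 30.5 and 27.3 CPM, above TEPA without IFN and below it with IFN. TEPA was not tested against the control here. SLC30A1, which was not called for the DC term, was higher with DC than with TEPA (log2 1.5, SE 0.12, adjusted p = 4.19e-05). The p53 target list had 19 of 25 members called lower with DC than with TEPA, against 4.18% of all tested genes. In the cholesterol synthesis list 13 of 25 were called higher, against 5.26%. Neither list had a member called for the DC term itself, where the medians were 0.06 and 0.02. CD274 did not pass the test (0.01, SE 0.20, adjusted p = 0.976).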

How the data were processed

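The authors deposited whole-number read counts per gene symbol, without normalization, for 26485 genes, as 1 table and as 1 list per library. Each of the 24 lists holds the same values as the matching table column. Per the labels' protocols RNA was column-purified and made into stranded mRNA libraries. STAR 2.5a, RSEM 1.2.31 and the genome build hg38 are named in the submitters' processing notes. The annotation and the strand setting of the counting are not given in the sources used here, so antisense genes were not named.

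With R 4.3.3 and edgeR 4.0.16, low genes were removed (filterByExpr, minimum count 10), libraries were scaled with TMM, and a quasi-likelihood model with an IFN term and a DC term was fitted to 12 libraries (9 residual degrees of freedom, biological coefficient of variation 0.138). Every adjusted p is Benjamini-Hochberg over all tested genes. CPM use the scaled totals. The effects within an IFN status and their difference came from a model with 4 group means. DC against TEPA was fitted to those 12 libraries with the same terms. The GC offset is a loess curve (span 0.5) of each library's log2 CPM on gene GC from GENCODE 29, known for 93.8% of tested genes. DESeq2 1.42.0 and limma-voom (limma 3.58.1) were alternatives. The scripts were tested on simulated data.

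The members and gene lists were chosen with earlier results of these data known. Genes are named where they are called, belong to the NRF2 list, have the smallest p in their direction (12 named per direction at most), or are the called or most abundant members of a list. CD274, HMOX1, SLC31A1, MT2A and TFRC are named whatever their values. A gene named outside this rule was chosen after its values were seen: ACO1, IREB2, SLC11A2, ASNS, SOD1, SLC30A1, HSPA5, GABARAPL1, DNAJB4, IRF1, NFE2L2, KEAP1, BACH1, MAFG and AHR are list members of that kind. Replicate libraries of each group differed by more than sampling noise. Totals limit counting error only. Some list members are counted but not reported by name here.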

Additional observations from a re-analysis of the deposited data

How the results depend on the processing

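The count of 9 genes for the DC term was 9 with DESeq2's size factors inside edgeR, with a stricter filter, with limma-voom and in the model with an interaction (FN1 lower in place of TXN), and 8 with no filter. It was 26 with DESeq2, 20 with the GC offset and 4 in a fit of all 24 libraries. Same-numbered libraries deviated together in 9 of 18 pairs (correlations from -0.492 to 0.595), and 7 of 12 libraries correlated best with their own number. This check cannot tell whether the numbers pair the 12 libraries, because the deviations also carry the GC trend. With the replicate block 3 genes were called (SLC7A11, GCLM, TFRC, ME1 and SRXN1 at adjusted p = 0.0599 and TXN at 0.0761), with the replicate block within each IFN status 5 (GCLM, TFRC, ME1 and TXN not among them), and with replicate block and GC offset 23, of which 5 were lower, among them CXCL10, CXCL11 and MX2. Leaving out 1 library gave 3 to 11. The cause of these shifts was not tested. NQO1, FTH1 and TXNRD1 were called in all 11 alternatives and all 12 fits without a library.

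Without IFN, the 2 genes called became 1 in the 6 libraries alone, 6 there with the replicate block, 8 with the GC offset and 1 to 4 without a library. With IFN, the 4 became 1 in the 6 libraries alone, 0 there with the replicate block (294 at an unadjusted p under 0.05), 8 with the GC offset and 1 to 22 without a library. In these 6 the same-numbered libraries did not deviate together, which does not settle whether the numbers pair them. The GC offset and the left-out libraries for both comparisons were added after seeing the data. The interaction gave 0 calls in each alternative run, with 421 genes at an unadjusted p under 0.05 as fitted first, 490 with the GC offset and 436 with the replicate block. For DC against TEPA the 1353 calls became 3523 with the GC offset, 1739 with the replicate block and 783 to 1514 without a library. Across the single genes followed, 547 of the values under an alternative stayed on their side of the threshold in the same direction, 72 lost a call and 20 gained one. A further 5, of genes not called, changed sign. Scarce genes such as HMOX1 and CHAC1 are limited by their counts.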

Other observations

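The selenoproteins, which carry selenocysteine, include thioredoxin reductases and glutathione peroxidases. Their list of 24 was chosen after the values were seen, 20 were tested, and 10 of the 20 had a positive DC term at a median of 0.00, close to the 45.5% and -0.01 of all tested genes. TXNRD1 was the only member called. SEPW1, selenoprotein W, had 16.3, 28.3 and 13.99 CPM with DC, against 24.9, 38.8 and 24.7 CPM in the control, and 15.5, 15.7 and 25.5 CPM with DC and IFN, against 38.8, 42.1 and 39.1 CPM with IFN. The groups overlapped without IFN, and its DC term was -0.83 (SE 0.20, adjusted p = 0.511 in edgeR). C11orf31, an older symbol for selenoprotein H, had 37.6, 37.5 and 36.3 CPM with DC, against 48.2, 47.5 and 45.1 CPM in the control, and 31.7, 32.3 and 38.1 CPM with DC and IFN, against 39.6, 39 and 47.0 CPM with IFN, with no overlap at either IFN status (DC term -0.32, adjusted p = 0.234). DESeq2 called both lower. SEPHS2, the selenoprotein that makes the selenium donor for selenocysteine, had 0.17 (SE 0.05, adjusted p = 1). GPX1 and GPX4, glutathione peroxidases, had -0.23 (SE 0.21) and 0.04 (SE 0.30).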
